A study of Mus musculus with 26 samples.

Results

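The fibroblast growth factor (FGF) genes described here are 10 genes, the ligands Fgf1, Fgf2, Fgf7, Fgf9, Fgf10 and Fgf18 and the receptors Fgfr1, Fgfr2, Fgfr3 and Fgfr4. They were taken by gene symbol from 2 tables of RNA-seq read counts, each with 41442 gene rows, and every symbol matched 1 row of each table. All 10 passed the filter on low counts in both tables, among 17858 genes tested in the fetal and 16195 in the uterine libraries.

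Red fluorescent mesenchymal cells were sorted from the mouse reproductive tract. The 4 fetal groups were Gli1+ cells of the mesonephros, the embryonic tissue that holds the Wolffian and Müllerian ducts, from Gli1-CreER; Rosa-Tomato females and males at E14.5 and E16.5 (embryonic days), with 3 RNA-seq libraries each. The 2 uterine groups, also of 3 libraries each, were Amhr2+ cells from Amhr2-Cre; Rosa-Tomato and Gli1+ cells from Gli1-CreER; Rosa-Tomato animals at E19.5. Dams of both lines had received tamoxifen, 1 mg at E12.5 and again at E13.5, so all 6 groups share that treatment. Gli1-CreER is switched on by tamoxifen in cells that express Gli1, a target gene of hedgehog signalling, and the label then stays in those cells and their descendants. Amhr2-Cre follows the receptor of anti-Müllerian hormone and needs no tamoxifen. The labels do not say whether replicates came from separate litters or from pooled embryos, so p-values measure only the spread between these libraries, which may be technical. In bulk RNA of sorted cells, fewer cells that express a gene and less RNA of it per cell cannot be told apart.

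Library totals ran from 23382983 to 64602477 counts in the fetal and from 28709191 to 37541045 in the uterine table. Levels are given as CPM, counts scaled to a common library size after normalization by trimmed mean of M-values (TMM). On that scale 3 counts, taken as the floor of detection, equal 0.0485 to 0.126 CPM for a fetal library and 0.0778 to 0.102 CPM for a uterine one. The summed level of 6 mesenchyme markers (Pdgfra, Pdgfrb, Col1a1, Col3a1, Vim and Dcn) lay between 21594 and 46399 CPM in the 18 libraries, whereas that of 7 epithelial markers, Epcam and Cdh1 among them, lay between 22.2 and 72.7 CPM. Gli1 itself read 48.5 to 54.0 CPM in E16.5 females and 184 to 246 CPM in the other fetal groups. In the uterine libraries it read 7.53 to 21.2 CPM. Those libraries were made with another kit and normalized separately, so this level is not compared with the fetal ones. The third libraries of both E14.5 groups stood apart. E14.5 female replicate 3 held 60 counts of the Y-linked gene Ddx3y, which had 0 counts in the other E14.5 females, and 886 CPM of 5 erythroid markers against 6.49 and 21.8 CPM. E14.5 male replicate 3 held Xist, the RNA of the inactive X chromosome, at 16.2 CPM, where its 2 companion libraries had 0.673 and 0.915 CPM. Results at E14.5 are therefore also given without those 2 libraries where a call is lost.

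FGFs are secreted signals that bind receptor tyrosine kinases together with heparan sulphate. Fgf7 and Fgf10 are made by mesenchyme and signal to adjacent epithelium through the epithelial splice form of Fgfr2, and Fgf10 is a known inducer of branching and budding, the prostate and seminal vesicle included. Fgf9 and Fgf18 act mainly through the mesenchymal splice forms of the receptors, and Fgf1 and Fgf2 bind several receptors and lack a classical signal peptide. Gene counts sum all transcripts of a gene, so the splice forms of Fgfr1, Fgfr2 and Fgfr3 were not resolved.

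Sequence is shown for the start regions of Fgf10 and Fgf7, the ligands with the largest increase with age, and of Fgf18, a ligand that differed by sex at both ages, because the list of accessible sites from the same cell type (ATAC-seq, all samples in 1 list) has peaks at all of them. Bases inside a deposited peak are in capitals, written 5′ to 3′ on the strand of the gene, from RefSeq on GRCm38.p6, the assembly called mm10. The Fgf10 peak is shown whole and ran from 423 to 290 bases before the start of the gene (chr13:118714276-118714409, plus strand). For Fgf7 (chr2:126034408-126034657, plus strand) and Fgf18 (chr11:33147401-33147650, minus strand) the 250 bases before the start are shown, of which 199 and 84 lie inside a peak. The Fgf18 stretch had 77.2% G and C, the Fgf10 peak 67.9% and the Fgf7 stretch 43.6%.
Fgf10: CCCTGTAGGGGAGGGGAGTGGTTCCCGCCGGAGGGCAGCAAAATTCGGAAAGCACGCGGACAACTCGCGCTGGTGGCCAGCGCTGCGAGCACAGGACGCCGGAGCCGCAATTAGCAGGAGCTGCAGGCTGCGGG
Fgf7: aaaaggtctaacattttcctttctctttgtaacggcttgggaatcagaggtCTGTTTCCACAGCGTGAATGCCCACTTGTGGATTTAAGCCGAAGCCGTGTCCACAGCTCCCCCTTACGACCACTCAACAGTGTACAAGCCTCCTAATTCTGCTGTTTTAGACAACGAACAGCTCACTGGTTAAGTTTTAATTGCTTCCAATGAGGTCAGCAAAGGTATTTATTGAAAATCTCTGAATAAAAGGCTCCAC
Fgf18: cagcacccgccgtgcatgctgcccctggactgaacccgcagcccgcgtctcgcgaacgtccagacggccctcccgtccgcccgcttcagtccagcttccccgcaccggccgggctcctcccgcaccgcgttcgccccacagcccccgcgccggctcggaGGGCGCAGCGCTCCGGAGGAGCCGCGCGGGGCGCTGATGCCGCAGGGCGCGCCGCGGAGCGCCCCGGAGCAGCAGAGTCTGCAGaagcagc

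Fgf10 (chromosome 13, 118714699 to 118792115) had the widest range among the 6 ligands, 3.24 on the log2 CPM scale between its highest and lowest fetal group mean. It read 4.44, 5.10 and 4.85 CPM in E14.5 females, 13.6, 13.8 and 14.9 CPM for males of that age, 32.6, 33.2 and 34.7 CPM in E16.5 females and 37.6, 51.7 and 49.3 CPM in E16.5 males. No 2 of the 4 groups overlapped. With age it rose 6.99-fold in females (log2 fold change 2.81, SE 0.117, adjusted p 1.63e-10) and 3.26-fold in males (1.71, SE 0.104, adjusted p 1.31e-08) by edgeR's quasi-likelihood test with Benjamini-Hochberg adjustment over all genes tested, which gave every adjusted p below. Males were higher 2.96-fold at E14.5 (log2 fold change, female minus male, -1.56, SE 0.119, adjusted p 1.07e-06) and 1.38-fold at E16.5 (-0.46, SE 0.099, adjusted p 0.00238). The interaction term, the E16.5 sex difference minus that of E14.5, was 1.10 (SE 0.155, adjusted p 0.000229), so the male excess as a fold was smaller at the later age. In CPM the excess did not shrink, with means of 4.80 and 14.1 in E14.5 females and males and 33.5 and 46.2 at E16.5. Another gene overlaps the start of Fgf10 on the opposite strand.

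Fgf7 (chromosome 2, 126034658 to 126091185), the other mesenchymal ligand of epithelial Fgfr2, changed with age and not detectably with sex. Its levels at E14.5 were 1.203, 0.757 and 1.12 CPM in females and 1.56, 0.915 and 1.55 CPM in males. By E16.5 they had reached 6.86, 6.30 and 6.80 CPM in females and 7.19, 6.78 and 5.86 CPM in males, above every E14.5 library. The increase was 6.41-fold in females (log2 fold change 2.68, SE 0.207, adjusted p 9.88e-08) and 4.95-fold in males (2.31, SE 0.192, adjusted p 3.35e-07). Its sex difference was -0.36 (SE 0.233, adjusted p 0.45) at E14.5 and 0.01 (SE 0.168, adjusted p 0.973) at E16.5, and the interaction was 0.37 (SE 0.287, adjusted p 0.483). Fgf7 overlaps Fam227b on the opposite strand. The fetal kit did not mark strand, so reads from any stretch that the 2 genes share cannot be told apart there.

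**Figure D1:**
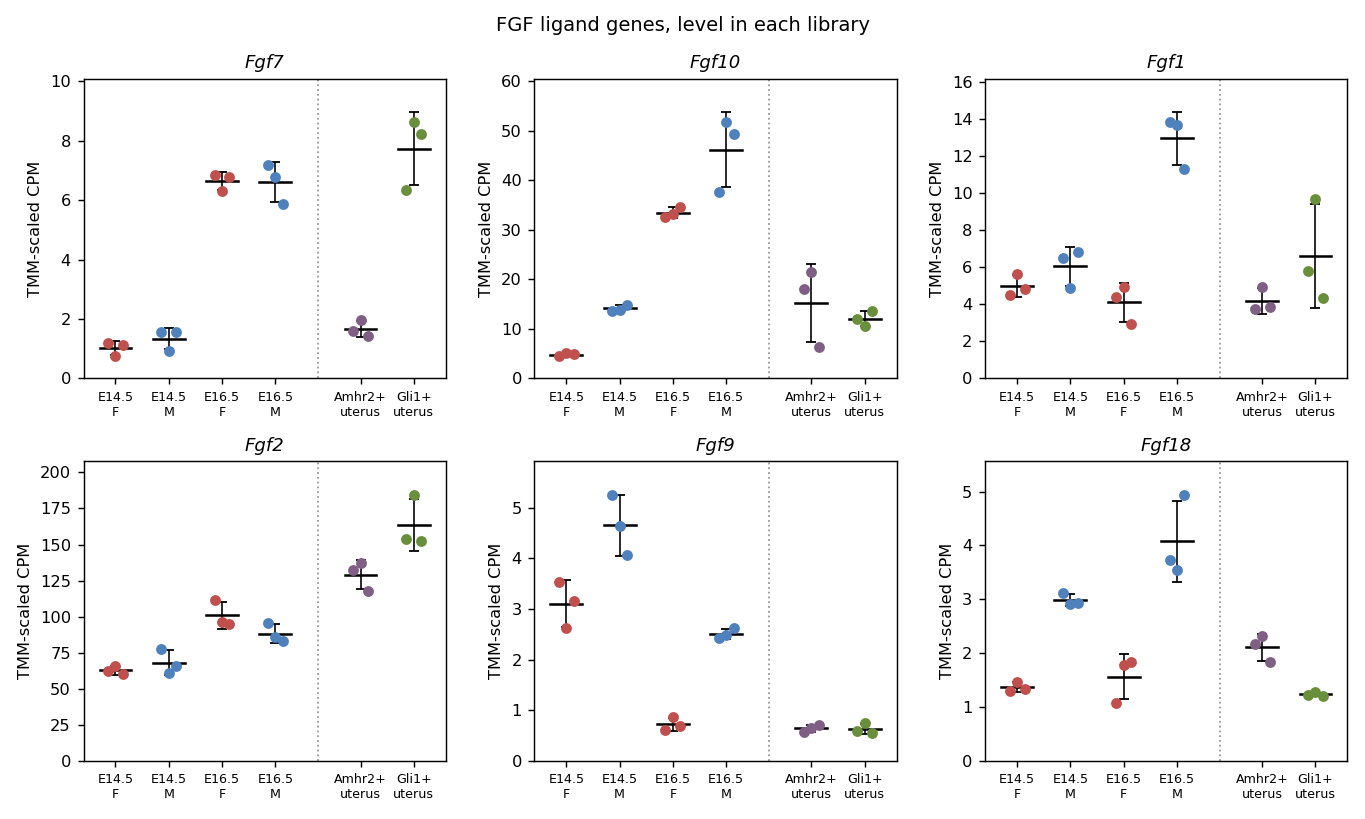
Level of each FGF ligand gene in each library (points, TMM-scaled CPM on the y axis from 0) by group, with the mean (bar) and SD (whiskers) of 3 libraries; the dotted line parts the fetal from the uterine table, which were normalized separately. Fgf7 and Fgf10 are highest at E16.5 in both sexes among the fetal groups, Fgf1 reads 11.3 to 13.9 CPM in E16.5 males, above all other fetal libraries, and among the fetal groups Fgf9 is lowest in E16.5 females.

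Fgf1 (chromosome 18, 38838673 to 38918771), a broad-range ligand that binds all 4 receptors, was higher in 1 fetal group than in the other 3. It measured 4.51, 5.65 and 4.85 CPM in E14.5 females, 6.48, 4.86 and 6.84 CPM for males of that age and 4.41, 4.95 and 2.96 CPM in E16.5 females, and these ranges overlapped. In E16.5 males it measured 13.9, 13.7 and 11.3 CPM, above all other fetal libraries. Males exceeded females 3.15-fold at E16.5 (log2 fold change -1.66, SE 0.176, adjusted p 3.47e-06), against -0.28 (SE 0.183, adjusted p 0.463) at E14.5. With age Fgf1 rose 2.14-fold in males (1.10, SE 0.172, adjusted p 0.000208) and gave -0.28 (SE 0.187, adjusted p 0.248) in females. The interaction, -1.38 (SE 0.254, adjusted p 0.00205), showed that the sex difference itself was larger at E16.5. Arhgap26 overlaps Fgf1 on the opposite strand.

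Fgf9 (chromosome 14, 58070547 to 58112720), a ligand known from mesothelium and from epithelium of several organs, went down with age. It stood at 3.54, 2.63 and 3.15 CPM in E14.5 females and 5.26, 4.65 and 4.06 CPM for males of that age, and then at 0.612, 0.862 and 0.682 CPM in E16.5 females and 2.42, 2.48 and 2.62 CPM in E16.5 males. The decrease was 4.32-fold in females (log2 fold change -2.11, SE 0.194, adjusted p 6.30e-07) and 1.84-fold in males (-0.88, SE 0.163, adjusted p 0.000935). At E16.5 males were 3.48-fold higher (-1.80, SE 0.191, adjusted p 3.28e-06). At E14.5 the sexes did not overlap either, but the difference of -0.57 (SE 0.166) missed the threshold at an adjusted p of 0.0565, and it passed with 4 alternatives, DESeq2 among them (adjusted p 0.0403). The difference between the ages in the sex effect was -1.23 (SE 0.254, adjusted p 0.00473). The summed level of the 7 epithelial markers was 29.8 to 33.9 CPM in E14.5 females, 44.7 to 52.5 CPM in E14.5 males, 22.2 to 31.9 CPM in E16.5 females and 32.0 to 40.3 CPM in E16.5 males, the same order by sex as Fgf9. That of 4 mesothelial markers (Msln, Upk3b, Lrrn4 and Krt19) was 31.5 to 40.3, 48.8 to 53.2, 20.2 to 44.0 and 42.3 to 59.2 CPM in the same groups. Their part in the result was not tested.

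Fgf18 (chromosome 11, 33117430 to 33147400), a relative of Fgf8 and Fgf17, was higher in males at both ages. Levels were 1.303, 1.47 and 1.34 CPM in E14.5 females against 3.11, 2.91 and 2.92 CPM in males, and 1.08, 1.77 and 1.84 CPM in E16.5 females against 3.73, 3.55 and 4.94 CPM in males. The sexes overlapped at neither age. Males were 2.17-fold higher at E14.5 (log2 fold change -1.12, SE 0.215, adjusted p 0.00488) and 2.62-fold higher at E16.5 (-1.39, SE 0.198, adjusted p 7.38e-05). Without the third library of both E14.5 groups the E14.5 difference was -1.12 with an adjusted p of 0.083. The change with age gave 0.19 (SE 0.224, adjusted p 0.526) in females and 0.46 (SE 0.189, adjusted p 0.0929) in males, and the interaction -0.27 (SE 0.293, adjusted p 0.639).

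Fgf2 (chromosome 3, 37348346 to 37410108), an intracellularly stored growth factor of stromal cells, rose with age in both sexes. It measured 60.0 to 65.9 CPM in E14.5 females and 60.6 to 77.8 CPM in E14.5 males, then 95.2 to 112 CPM in E16.5 females and 83.4 to 95.5 CPM in E16.5 males. The rise was 1.61-fold in females (log2 fold change 0.69, SE 0.092, adjusted p 3.13e-05) and 1.298-fold in males (0.38, SE 0.091, adjusted p 0.00708). Neither sex difference passed, with -0.12 (adjusted p 0.559) at E14.5 and 0.20 (adjusted p 0.126) at E16.5. The Fgf2 row overlaps 4 other genes, 1 of them on its own strand.

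Between the highest and lowest fetal group mean, 5 of the 6 ligands spanned 1.52 to 3.24 and Fgf2 spanned 0.68 on the log2 CPM scale, and the receptors spanned 0.26 (Fgfr1) to 1.03 (Fgfr2). Fgfr1 (chromosome 8, 25518759 to 25575718), the main receptor of mesenchyme, read 286 to 294 CPM in E14.5 females, 261 to 278 CPM in E14.5 males, 233 to 254 CPM in E16.5 females and 272 to 296 CPM in E16.5 males. E16.5 females were thus the lowest of the 4 groups. They were below E16.5 males 1.18-fold (log2 fold change -0.24, SE 0.058, adjusted p 0.00622) and below E14.5 females (log2 fold change -0.26, SE 0.058, adjusted p 0.00224). In males the change with age was 0.08 (SE 0.058, adjusted p 0.345), and the sex difference at E14.5 was 0.11 (SE 0.058, adjusted p 0.347). The interaction was -0.34 (SE 0.082, adjusted p 0.0124), and -0.37 with an adjusted p of 0.0537 without the third library of both E14.5 groups. Another gene lies within Fgfr1 on the opposite strand.

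Fgfr2, the receptor of Fgf7 and Fgf10 in epithelium and, as another splice form, a receptor of mesenchyme, fell with age in both sexes and was lower in females. It read 182, 156 and 168 CPM in E14.5 females, 207, 226 and 205 CPM for males of that age, 104, 101 and 108 CPM in E16.5 females and 144, 177 and 186 CPM in E16.5 males. E16.5 females lay below every other fetal library, and E16.5 males overlapped E14.5 females. The decrease with age was 1.62-fold in females (log2 fold change -0.70, SE 0.086, adjusted p 1.37e-05) and 1.26-fold in males (-0.33, SE 0.085, adjusted p 0.0107). Males were higher 1.63-fold at E16.5 (-0.70, SE 0.086, adjusted p 1.53e-05) and 1.26-fold at E14.5 (-0.33, SE 0.085, adjusted p 0.0289). The E14.5 call was lost without E14.5 female replicate 2 (adjusted p 0.153) or 3 (adjusted p 0.103), without E14.5 male replicate 2 (adjusted p 0.129) or 3 (adjusted p 0.0684), and without replicate 3 of both groups (adjusted p 0.193). The interaction, -0.37 (SE 0.121), missed the threshold at an adjusted p of 0.0688 and passed under 5 alternatives.

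The Fgfr2 row spans chromosome 7 from 130162451 to 133123350, which is 2960900 bases and takes in 59 other genes, 30 of them on its own strand. RefSeq starts the gene at 130266808. In GENCODE vM21, which may not be the annotation that was counted, exons of Fgfr2 cover 10328 bases, of which 314, or 3.04%, lie more than 1 kb beyond that start. How reads in the overlapping genes were assigned is not given in the sources used here, and the Fgfr2 values carry that uncertainty.

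Fgfr3 (chromosome 5, 33721724 to 33737068) and Fgfr4 (chromosome 13, 55152640 to 55168759) were low throughout. Fgfr3 read 7.82, 8.56 and 9.74 CPM in E14.5 females, 10.3, 8.57 and 8.05 CPM for males of that age, 8.84, 9.28 and 9.85 CPM in E16.5 females and 7.46, 6.44 and 7.30 CPM in E16.5 males. It was the 1 member called higher in females, 1.32-fold at E16.5 (log2 fold change 0.40, SE 0.119, adjusted p 0.0205). That call was lost without E16.5 female replicate 2 (adjusted p 0.0625) or 3 (adjusted p 0.0668) and without E16.5 male replicate 2 (adjusted p 0.0816). Another gene overlaps the start of Fgfr3 on the opposite strand. Fgfr4 lay between 2.39 and 4.67 CPM in the 12 fetal libraries and was not called in any comparison, with sex differences of -0.02 (SE 0.173) at E14.5 and -0.01 (SE 0.16) at E16.5 and changes with age of 0.42 (SE 0.169, adjusted p 0.0632) in females and 0.40 (SE 0.164, adjusted p 0.0916) in males. The change with age passed under 3 alternatives in females (adjusted p 0.0359 to 0.0479) and without E16.5 male replicate 3 in males (adjusted p 0.0469).

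**Figure D2:**
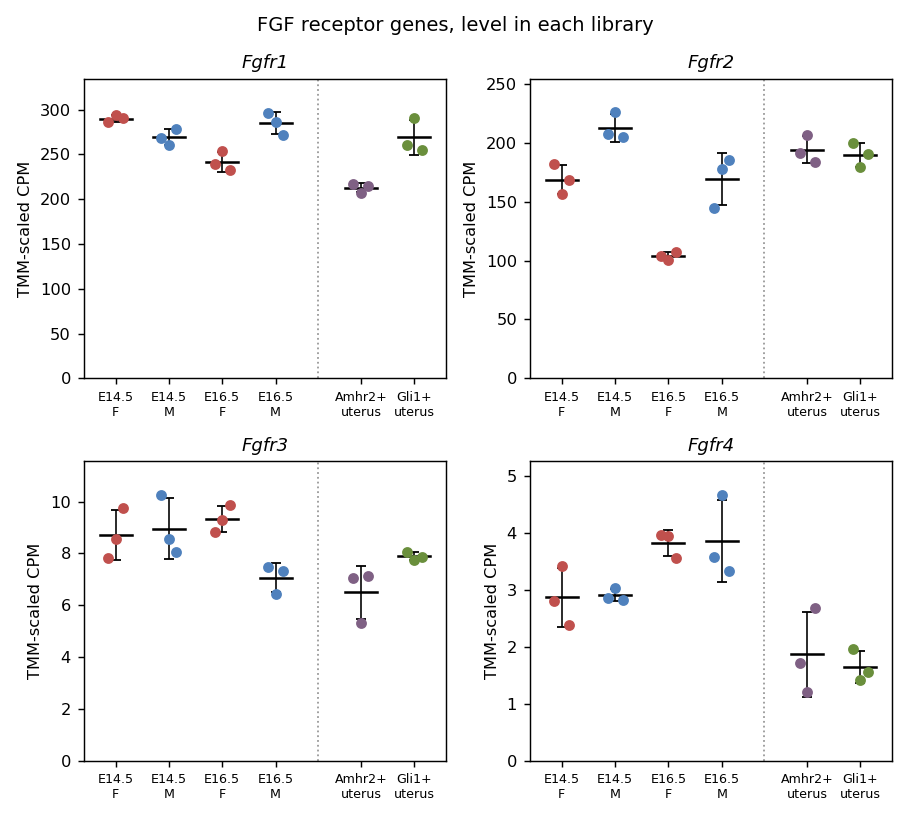
Level of each FGF receptor gene in each library (points, TMM-scaled CPM on the y axis from 0) by group, with the mean (bar) and SD (whiskers) of 3 libraries; the dotted line parts the 2 separately normalized tables. Fgfr2 reads 101 to 108 CPM in E16.5 females, below all other fetal libraries, and Fgfr1 is lowest in the same group among the fetal ones.

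Counted by comparison, 3 of the 10 genes differed by sex at E14.5 (Fgf10, Fgf18 and Fgfr2), all higher in males, where 6.28% of all genes tested were called and 3.69% were higher in males and 2.59% in females. The median log2 fold change of the 10 was -0.30, and that of all genes tested was -0.01. At E16.5 the count was 7 of 10, with Fgf1, Fgf9, Fgf10, Fgf18, Fgfr1 and Fgfr2 higher in males and Fgfr3 higher in females. Of all genes 27.3% were called there, 14.1% higher in males and 13.2% higher in females. The medians were -0.35 for the 10 and 0.01 for all genes. Of the 6 ligands, 2 were called at E14.5 and 4 at E16.5, and every one of those was higher in males.

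**Figure D3:**
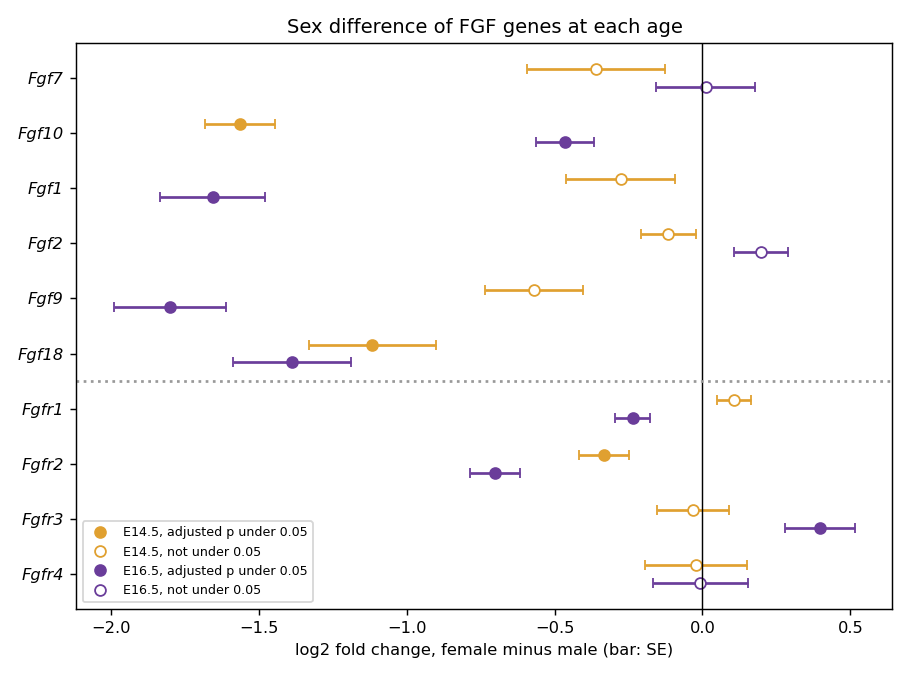
Sex difference of each FGF gene (log2 fold change, female minus male, on the x axis; bars are SE from 3 libraries a group), at E14.5 in orange and at E16.5 in purple, with filled points where the adjusted p was under 0.05. Filled ligand points all lie left of 0, with Fgf10 at -1.56 and -0.46 and Fgf9 at -1.80 at E16.5.

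Smooth muscle markers moved with sex and age in the same libraries. The summed level of Myh11, Acta2, Cnn1 and Des was 297 to 320 CPM in E14.5 females, 596 to 879 CPM in E14.5 males, 461 to 561 CPM in E16.5 females and 1691 to 2842 CPM in E16.5 males, with no marker at 0. Among E16.5 males, replicate 1 had the lowest sum. That library also had the lowest Fgf9, Fgf10 and Fgfr2 of its group, but the highest Fgf1, Fgf2, Fgf7, Fgfr1 and Fgfr3. The part of smooth muscle cells in the sex and age differences was not tested.

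With age, 6 of 10 genes changed in females, Fgf2, Fgf7 and Fgf10 upwards and Fgf9, Fgfr1 and Fgfr2 downwards, where 39.6% of all genes were called, 21.0% upwards and 18.6% downwards. In males 6 of 10 changed as well, Fgf1, Fgf2, Fgf7 and Fgf10 upwards and Fgf9 and Fgfr2 downwards, against 23.3% of all genes, 13.1% upwards and 10.2% downwards. The direction of all calls depended on the scaling. In females 3746 went up and 3322 down under TMM, against 3130 up and 3924 down under library size only. In males the counts were 2340 up and 1828 down, against 1847 up and 2641 down. None of the called members changed direction. The median absolute log2 fold change of the 10 was 0.55 in females and 0.43 in males, and that of all genes was 0.29 and 0.20. The 2 age comparisons have no library in common, but each shares its libraries with the sex comparisons.

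**Figure D4:**
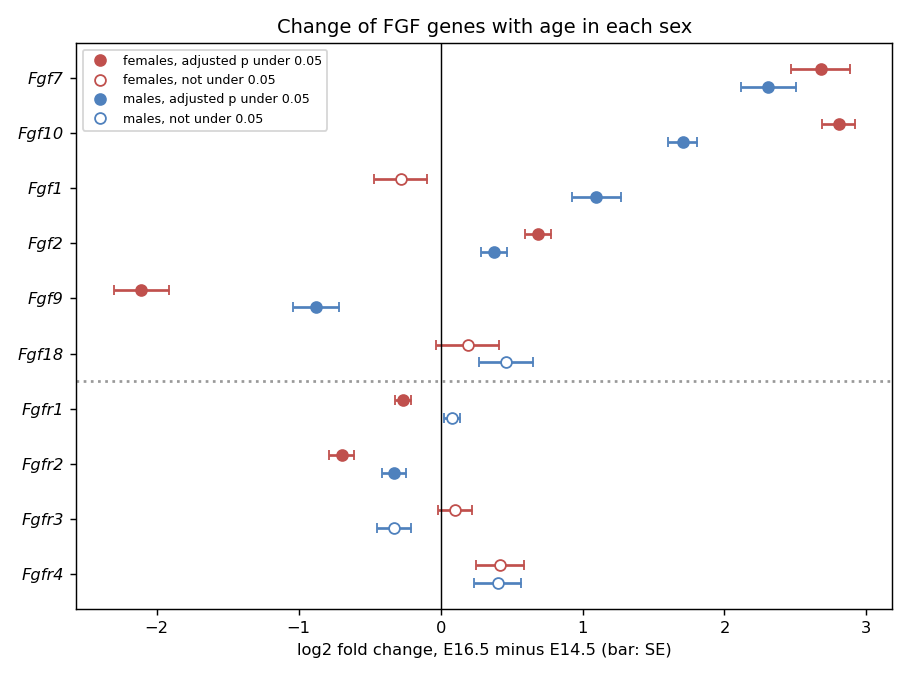
Change of each FGF gene with age (log2 fold change, E16.5 minus E14.5, on the x axis; bars are SE from 3 libraries a group), females in red and males in blue, with filled points where the adjusted p was under 0.05. Fgf7 and Fgf10 lie between 1.71 and 2.81, Fgf9 at -2.11 and -0.88, and the 4 receptors between -0.70 and 0.42.

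The sex effect itself differed between the ages in 4 of the 10 genes. For Fgf1, Fgf9 and Fgfr1 the interaction was negative, so females stood lower relative to males at E16.5 than at E14.5, as for 5.36% of all genes tested. For Fgf10 it was positive, as for 4.66% of all genes tested.

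In the uterus at E19.5, 4 of the 10 genes differed between Amhr2+ and Gli1+ cells, where 23.9% of all genes tested were called. Fgf7 differed most, with 1.58, 1.97 and 1.42 CPM in Amhr2+ and 6.34, 8.64 and 8.23 CPM in Gli1+ cells, 4.64-fold higher in the latter (log2 fold change, Amhr2+ minus Gli1+, -2.21, SE 0.194, adjusted p 0.000159). Fgfr1 was 1.26-fold higher in Gli1+ cells, at 217, 207 and 214 CPM against 261, 291 and 255 CPM (-0.34, SE 0.067, adjusted p 0.00869). Fgf2 read 132, 137 and 118 CPM against 154, 185 and 153 CPM, 1.27-fold higher in Gli1+ cells (-0.34, SE 0.091, adjusted p 0.0281). Its call was lost under library size only (adjusted p 0.0746) and without Amhr2+ replicate 1 (adjusted p 0.0787), Amhr2+ replicate 3 (adjusted p 0.0735) or Gli1+ replicate 2 (adjusted p 0.0503). These 3 genes were higher in Gli1+ cells, as were 13.7% of all genes tested.

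Fgf18 was the 1 member called higher in Amhr2+ cells, in which 10.1% of all genes were called higher. It read 2.18, 2.32 and 1.83 CPM against 1.22, 1.27 and 1.21 CPM in Gli1+ cells, without overlap (1.71-fold, log2 fold change 0.78, SE 0.198, adjusted p 0.0238). The adjusted p rose to 0.101 without Amhr2+ replicate 1, 0.0875 without Amhr2+ replicate 2, 0.0665 without Gli1+ replicate 1 and 0.0539 without Gli1+ replicate 3. Fgf10 measured 18.0, 21.4 and 6.41 CPM in Amhr2+ and 11.97, 10.6 and 13.7 CPM in Gli1+ cells, so 1 library lay below and 2 lay above the other group. Its log2 fold change was 0.35 (SE 0.406, adjusted p 0.579), and 0.71 with an adjusted p of 0.0114 without Amhr2+ replicate 3. That library also had the lowest summed smooth muscle markers of its group, 853 CPM against 1203 and 1372 CPM, and the lowest sum of 6 gonadal somatic markers, 71.1 CPM against 113 and 119 CPM, most of it Foxl2.

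The other uterine genes did not differ detectably. Fgfr2 read 192, 206 and 184 CPM in Amhr2+ and 200, 180 and 190 CPM in Gli1+ cells, with a log2 difference of 0.03 (SE 0.068, adjusted p 0.776). Fgf1, with 3.73, 4.96 and 3.83 CPM against 5.78, 9.72 and 4.34 CPM, gave -0.66 (SE 0.288, adjusted p 0.134) and passed without Gli1+ replicate 3 (adjusted p 0.0414). Fgf9 lay between 0.543 and 0.743 CPM in all 6 libraries, above the floor of detection. Fgfr3 gave -0.28 (SE 0.145, adjusted p 0.193) and Fgfr4 0.16 (SE 0.305, adjusted p 0.736). Epithelial markers summed to 71.0 to 72.7 CPM in Amhr2+ and 30.8 to 42.6 CPM in Gli1+ libraries, and smooth muscle markers to 853 to 1372 CPM and 1726 to 1799 CPM. Mesenchyme markers summed to 21594 to 23428 CPM in Amhr2+ and 39461 to 43659 CPM in Gli1+ libraries, endothelial markers to 23.8 to 29.6 and 36.7 to 44.9 CPM, erythroid markers to 1.54 to 2.15 and 6.995 to 7.80 CPM, and germ cell markers to 0.475 to 0.944 and 5.28 to 6.53 CPM. Gonadal somatic markers summed to 71.1 to 119 and 61.7 to 64.9 CPM and neural and glial markers to 10.6 to 14.7 and 9.57 to 9.95 CPM. The 2 uterine groups overlapped in none of these 8 lists, but they did overlap in the remaining lists, of immune, mesothelial and lineage markers. Some sums rested on part of a list. Of the 4 germ cell markers 2 had 0 counts in each Gli1+ library, and 1 of 5 erythroid markers had 0 counts in every uterine library. The gonadal somatic and the neural and glial lists also held markers at 0 counts. Immune markers summed to 43.7 to 83.8 CPM in Amhr2+ and 21.5 to 83.3 CPM in Gli1+ libraries. Mesothelial markers summed to 60.5 to 71.5 and 38.3 to 70.9 CPM. The part of any marker list in the 4 differences was not tested. Scaling mattered for the direction of all calls, with 1642 positive and 2224 negative under TMM and 2849 positive and 1640 negative under library size only.

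For comparison between genes, levels were divided by the summed exon length of each gene in GENCODE vM21 (CPM per kb). Fgfr1 was highest in all 6 groups, between 21.5 and 29.4 CPM per kb. Fgfr2 came next in E14.5 females (16.3 ± 1.23, SD, n = 3), E14.5 males (20.6 ± 1.12) and E16.5 males (16.4 ± 2.11). In E16.5 females Fgf2, at 14.9 ± 1.37 CPM per kb, stood above Fgfr2 at 10.1 ± 0.342, and in uterine Gli1+ cells it stood at 24.1 ± 2.67 against 18.4 ± 0.978. In uterine Amhr2+ cells Fgf2 and Fgfr2 (19.0 ± 1.46 and 18.8 ± 1.10) were closer than their spread. Fgf10 took the fourth place in 5 of the 6 groups, but in the uterine groups the next gene differed from it by less than the larger SD. In Gli1+ cells Fgf10 stood at 2.62 ± 0.334 and Fgf7 at 2.38 ± 0.377, and in Amhr2+ cells Fgf10 stood at 3.32 ± 1.71 and Fgf18 at 1.78 ± 0.212. In E14.5 females Fgf10 was sixth at 1.04 ± 0.0718, between Fgf18 (1.16 ± 0.0756) and Fgf1 (0.916 ± 0.108), and each of these neighbours differed from it by less than 2 SD. The lowest gene was Fgf7 at E14.5 in both sexes (0.316 ± 0.0732 in females and 0.413 ± 0.114 in males) and Fgf9 in the 4 later groups, with 0.135 to 0.539 CPM per kb.

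The rest of the pathway was described from 6 lists. ETS factors, of which Etv4 and Etv5 are transcriptional targets of FGF signalling, were called in 2 of 3 at E14.5. Both were higher in females, as were 2.59% of all genes tested, and the called FGF genes were higher in males. Etv4 read 14.8 ± 0.675 CPM in females and 3.66 ± 0.969 CPM in males (log2 fold change 2.01, adjusted p 4.25e-06) and Etv5 26.2 ± 1.57 and 13.5 ± 0.411 CPM (0.95, adjusted p 1.23e-05). At E16.5 Etv4 was again higher in females (1.47, adjusted p 1.37e-05), Etv1 was higher in males, 30.4 ± 4.69 against 8.49 ± 0.719 CPM (-1.84, adjusted p 1.98e-08), and Etv5 was not called. At that age 13.2% of all genes tested were higher in females and 14.1% in males. In uterine cells all 3 were higher in Amhr2+ cells, as were 10.1% of all genes tested. Etv4 differed most (1.75, adjusted p 0.003), followed by Etv1 (0.81, adjusted p 0.00723). With age all 3 fell in females, as did 18.6% of all genes tested. In males Etv4 fell, a call lost under 4 of 19 alternatives, and Etv5 rose, a call lost under 12 of 19. Of all genes, 10.2% fell and 13.1% rose in males.

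Feedback inhibitors, the Sprouty, Spred, Dusp6 and Il17rd genes that FGF signalling induces, were tested in 9 of 9. With age 6 of them fell and none rose in females, where 18.6% of all genes tested fell and 21.0% rose, with Dusp6, the phosphatase of ERK, falling from 71.8 ± 1.98 to 22.3 ± 2.98 CPM (-1.69, adjusted p 1.78e-05) and Spry4 from 38.7 ± 1.63 to 20.8 ± 2.13 CPM (-0.89, adjusted p 0.000732). The list's median log2 fold change there was -0.45, and that of all genes was 0.00. In males 2 fell and 1 rose, against 10.2% and 13.1% of all genes. At E16.5 3 of 9 were lower in females, as were 14.1% of all genes, Il17rd at 28.2 ± 0.9 against 58.6 ± 8.56 CPM (-1.06, adjusted p 5.25e-07) and Spry4 at 20.8 ± 2.13 against 34.3 ± 1.97 CPM (-0.72, adjusted p 0.00403) changing most. At E14.5 only Spred1 of the 9 was called (0.35, adjusted p 0.0429), a call lost under 8 of 19 alternatives. In the uterus 3 were higher and 1 lower in Amhr2+ cells, against 10.1% and 13.7% of all genes, and the calls of Spry2 and Spry1, the 2 named there, were lost under 7 and 1 of 11 alternatives.

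The intracellular FGF homologous factors, which are not secreted and bind sodium channels, were tested in 4 of 4. Fgf12 rose with age in females, from 2.20 ± 0.352 to 6.09 ± 0.484 CPM (1.47, adjusted p 2.05e-06), and so did Fgf14 (1.00, adjusted p 0.000549). Of the 4, 3 were called upwards in females and 2 in males, where 21.0% and 13.1% of all genes were. The male calls, Fgf12 (0.42, adjusted p 0.0415) and Fgf13 (0.39, adjusted p 0.0418), were each lost under 11 of 19 alternatives. Fgf14 was lower in females at E14.5 (-1.11, adjusted p 0.00163). In the uterus Fgf12, at 1.42 to 3.53 against 10.1 to 14.02 CPM (-2.09, adjusted p 0.00266), and Fgf14, at 0.191 ± 0.0505 against 0.919 ± 0.186 CPM (-2.25, adjusted p 0.00254), were lower in Amhr2+ cells. Fgf14 read 0.135 to 0.233 CPM in the Amhr2+ libraries, near the floor of 0.0778 to 0.102 CPM, so the size of its difference is imprecise. The direction of Fgf12 and Fgf14 in the uterus was that of Fgf7.

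Co-receptors and binding proteins were tested in 7 of 8 in the fetal and 6 of 8 in the uterine table. Flrt1, a membrane protein that binds FGF receptors, was at 74.6 ± 13.3 CPM in E16.5 females against 36.0 ± 6.15 CPM in males (1.06, adjusted p 2.81e-05) and at 27.5 ± 0.932 CPM in E14.5 females. At E16.5 3 of 7 were higher in females and none lower, against 13.2% and 14.1% of all genes, and with age 2 of 7 rose in females, against 21.0% of all genes. In the uterus 1 of 6 was higher and 1 lower in Amhr2+ cells, against 10.1% and 13.7% of all genes. Kl, a co-receptor, was higher there, 1.37 ± 0.189 against 0.688 ± 0.105 CPM (0.99, adjusted p 0.0218), a call lost under 3 of 11 alternatives. Flrt2, of the same family as Flrt1, was lower in uterine Amhr2+ cells, 273 ± 5.01 against 439.8 ± 39.98 CPM (-0.69, adjusted p 0.000467). Of the 17 transduction genes 1 was called by sex at E14.5, 4 at E16.5, 6 with age in females, 3 with age in males and 0 in the uterus. The shares of all genes called in those comparisons were 6.28%, 27.3%, 39.6%, 23.3% and 23.9%. In the uterus their median absolute log2 fold change was 0.07, against 0.22 for all genes, with 0 of 17 called by edgeR or by DESeq2 and 3 at an unadjusted p under 0.05 by edgeR. Mapk3, which encodes ERK1, rose with age in females from 66.2 ± 2.57 to 115 ± 2.48 CPM (0.79, adjusted p 6.75e-07) and in males (0.63, adjusted p 1.11e-05). Of the 12 other FGF ligands only 4 were tested in the fetal and 1 in the uterine table. Fgf5 was called by sex at E16.5 and Fgf21 by sex at E14.5 and by age in females, but Fgf5 averaged 0.0418 CPM in E16.5 females and 0.266 CPM in males and Fgf21 averaged 0.0253 CPM in E14.5 females, at or near the floor of 3 counts, so no fold is given.

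Genes whose pattern over the 12 fetal libraries was most like that of Fgf10, the ligand with the widest range, were Rbm24, Bst2, Vstm2a, Rprm and Tnn, with root mean square differences from Fgf10 of 0.242, 0.261, 0.286, 0.311 and 0.334 in log2 CPM (prior count 2) after centring each gene. Rbm24, an RNA-binding protein of muscle, averaged 4.76, 12.3, 28.3 and 42.0 CPM in E14.5 females, E14.5 males, E16.5 females and E16.5 males, the same order of groups as Fgf10. For Fgfr2, the receptor with the widest range, the nearest were Hook1, Sc5d, Gnaq, C1galt1 and Rabgap1l, at 0.114, 0.12, 0.127, 0.135 and 0.143. Gnaq, a G protein subunit, averaged 186, 219, 131 and 200.2 CPM in the same order of groups.

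The ATAC-seq peaks have no height and no sample, so they describe where accessible chromatin was called in fetal Gli1+ cells of either sex and age, and no group can be compared. Each of the 10 genes had at least 1 peak within 1 kb of its start, 3 for Fgf18 and 2 for Fgf10. The share of all genes with a peak that near was not counted. Such a peak was also present at Fgf3, Fgf5, Fgf8, Fgf15, Fgf20, Fgf21, Fgf22 and Fgf23 among the other FGF ligands. Fgf4, Fgf6, Fgf16 and Fgf17 had none. Inside the genes there were 11 peaks for Fgfr2, counted to its RefSeq start, 8 each for Fgf2 and Fgfr1, 7 for Fgf1, 5 for Fgf7, 4 for Fgf9, 3 for Fgf10 and 2 each for Fgf18, Fgfr3 and Fgfr4. Fgf10 had 1 of its 3 in an exon of GENCODE vM21 and 2 in an intron, 75 and 77 bases long and centred 17.4 and 17.9 kb after its start, whereas both peaks of Fgf18 were intronic and both of Fgfr3 touched an exon. RefSeq start windows were matched for 8 of the 10 genes, in 9 windows since Fgfr3 has 2. The 250 bases before the start overlapped a peak for Fgf2, Fgf7, Fgf18, both Fgfr3 windows and Fgfr4, and for 41.4% of the 32851 windows of all genes.

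**Figure D5:**
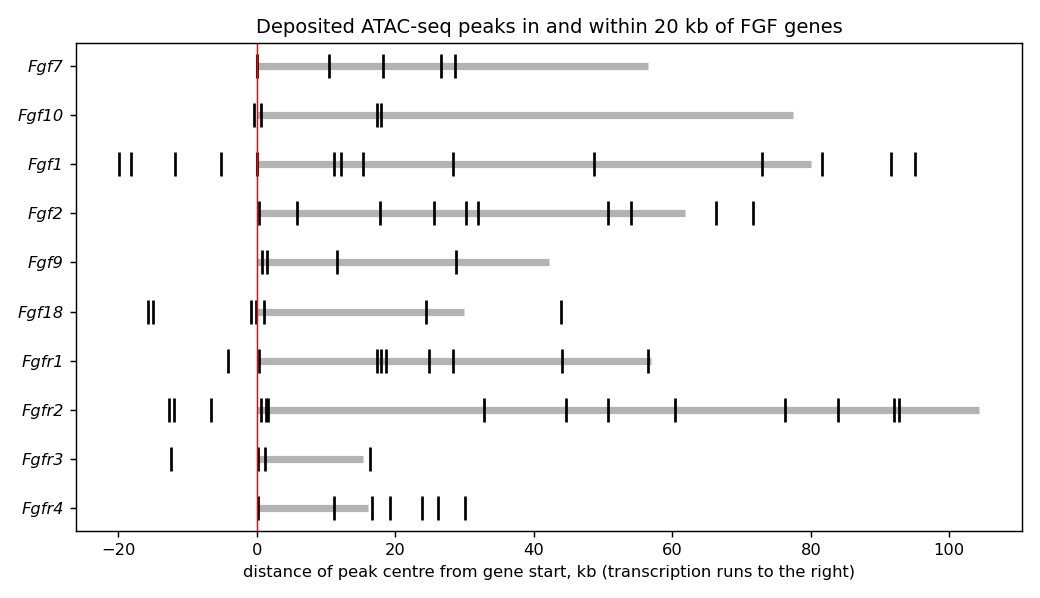
Centres of deposited ATAC-seq peaks (black ticks) in each FGF gene and up to 20 kb on either side, placed by distance from the start of the gene in kb on the x axis; grey bars are the genes, transcribed to the right, and the red line is the start. Every gene shown has a peak within 1 kb of its start, a share not counted over all genes. Fgf10 has 4 peaks in all, 2 of them around the start.

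The same 250-base windows were searched on both strands for 5 short motifs. The GC box GGGCGGG was found in the windows of Fgf2, Fgf10 and Fgfr4 and in both windows of Fgfr3, and in 23.4% of all windows. The GLI motif TGGGTGGTC (0.225% of all windows), the ETS motif CCGGAAGT (2.88%), the TATA motif TATAAA (12.4%) and the androgen receptor half-site TGTTCT (16.1%) matched none of the 9 windows, and no match overlapped another motif. A match is a description of letters, not of a bound site.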

How the data were processed

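RNA-seq read counts per gene were deposited by the authors as 1 table for the 12 fetal and 1 for the 6 uterine libraries, with gene positions on mm10 per the file headers. Per the submitters' processing notes, STAR 2.5, featureCounts, Subread 1.5.0-p1, Bowtie 1.2, SAMtools 1.3.1, Picard, bedtools 2.24.0 and MACS2 2.1.1 were used, with no role or order given; the annotation, the use of strand and the peak threshold are not given in the sources used here. Per the labels' protocols, fetal libraries were non-stranded and uterine libraries stranded, so the tables were never fitted together and reads of overlapping or antisense genes cannot be told apart in the fetal table. The authors deposited ATAC-seq peaks as 1 list of positions for all samples, without a score, used here as intervals only.

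Counts were tested with edgeR 4.0.16 in R 4.3.3 (filterByExpr with the group factor, TMM, robust quasi-likelihood F test, Benjamini-Hochberg adjustment over all genes tested, threshold 0.05). The 4 fetal groups were fitted in 1 model of group means and the uterine groups in another. The SE of a log2 fold change is its size divided by the root of F. Precision rests on library totals of at least 23382983 counts, and the floor of 3 counts covers counting error only. A suffix was added to 64 gene rows whose symbol occurred before, none of them a member. The fit was tested on simulated counts with known fold changes.

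Alternatives were DESeq2 1.42.0, its size factors in edgeR, library size only, no low-count filter, a replicate block, a fit of only the libraries compared and leaving out each library in turn; leaving out replicate 3 of both E14.5 groups was chosen after seeing the data. The members, pathway lists and marker lists were chosen with earlier results of these data known. All 10 members are named. Of each pathway list, up to 2 called genes with the largest change per comparison may be named. The genes most like a member were the 5 with the smallest root mean square difference, for the ligand and the receptor with the widest range.

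Whether replicate numbers pair libraries was checked by correlating, for each number, how its 2 libraries deviated from the mean of their group. Between the sexes at E16.5 the 3 correlations ran from 0.115 to 0.396, all above 0.1, the bar set for pairs. Libraries of different number ran from -0.34 to 0.108 there. The highest, female replicate 2 with male replicate 1, was also above the bar, so the bar does not settle whether numbers pair libraries. The fit with the replicate block was run beside the fit of group means, from which the values given come. No label links a number with a litter. At E14.5 the correlations of equal numbers ran from 0.0504 to 0.0725 and those of different numbers from -0.0434 to -0.00731. Between the sexes, equal numbers thus gave the higher correlations at both ages, although those at E14.5 stayed below the bar. In the uterus equal numbers ran from 0.00176 to 0.243 and different numbers from -0.245 to 0.128, which overlap. Replicates may therefore be paired between the sexes, and the fit of group means leaves any such pairing out. Exon lengths came from GENCODE vM21 and sequences from RefSeq on GRCm38.p6, which lists start windows for 8 of the 10 members.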

Additional observations from a re-analysis of the deposited data

Results flagged for a closer look

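The following differences are singled out because the sex difference at E16.5 and that at E14.5 were compared directly, by the interaction term of the edgeR model over the 12 fetal libraries, and differed at an adjusted p under 0.05. Among the members these were Fgf1 at -1.38, Fgf9 at -1.23, Fgf10 at 1.10 and Fgfr1 at -0.34, as log2 differences of 2 sex effects (female minus male). Among the other pathway genes the term was -2.05 for Etv1, -1.12 for Etv5, -1.15 for Spry4, -0.75 for Il17rd and -0.40 for Map2k1. It was 1.27 for Flrt1, 1.04 for Fgf12 and 0.51 for Fgf11. For Fgf11 the call was lost without the third library of both E14.5 groups (adjusted p 0.0542), as it was for Fgfr1 (adjusted p 0.0537).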

How the results depend on the processing

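Of 1050 recomputed values for the 60 member results, 987 kept their direction and their side of the threshold, 18 lost and 20 gained a call, and 25 changed sign, all of them results that had not been called; 24 of 30 calls held under all alternatives run. The causes were not tested. With DESeq2 size factors the Fgfr4 interaction was -0.00013. Without replicate 3 of both E14.5 groups the Fgfr4 sex difference at E14.5 was 0.0742 and its interaction -0.0815, the count of genes called by sex at E14.5 was 288 (1 member, Fgf10) and for the interaction 1021. Leaving out 1 library at a time gave -0.122 to 0.0674 for Fgfr3 by sex at E14.5, -0.101 to 0.169 for Fgfr4 interaction, -0.161 to 0.0948 for Fgfr4 by sex at E14.5, -0.0825 to 0.0771 for Fgf7 by sex at E16.5, -0.119 to 0.148 for Fgfr4 by sex at E16.5, -0.0102 to 0.0689 for Fgfr2 in the uterus, -0.0623 to 0.165 for Fgf9 in the uterus and -0.174 to 0.405 for Fgfr4 in the uterus (log2). Genes called by sex at E14.5 ranged from 553 to 1678 (578, 660 and 653 when female replicate 1, 2 or 3 of that age was left out, 686 and 553 for male replicate 2 or 3), for the interaction from 1335 to 2687 (the highest without E16.5 male replicate 1), and in the uterus from 1949 (without Amhr2+ replicate 1; 2521 without Gli1+ replicate 1) to 3521, with 2 to 4 members.

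With a replicate block, 1581, 5901 and 2592 genes (4, 7 and 5 members) were called by sex at E14.5, by sex at E16.5 and for the interaction, 6255 and 3463 (6 and 6 members) by age in females and males, and 4725 (5 members) in the uterus. The block added Fgf9 by sex at E14.5 (adjusted p 0.0336), the Fgfr2 interaction (adjusted p 0.0425) and uterine Fgf1 (adjusted p 0.0325), and changed no other member call. Fgf7, Fgf9, Fgf18 and Fgfr4 lay between 0.543 and 8.64 CPM in all 18 libraries, and depth limits the precision of their values.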
